A study of Drosophila melanogaster with 2 samples.

Results

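The genes described are the cytoplasmic ribosomal protein genes of Drosophila melanogaster, and the measurement is the chromatin recovered with the protein Ken. Members were chosen by gene symbol: protein-coding genes whose symbol starts with RpL, RpS or RpLP followed by a digit. This gave 92 of the 13968 protein-coding genes on the main chromosome arms. The rule also took in genes named only for their likeness to a ribosomal protein, such as RpL7-like, RpL24-like and RpLP0-like. They are counted with the rest as ribosomal protein genes. The chromatin came from whole embryos of 0 to 24 h of a strain, ken-GFP, with an insertion that targets ken and makes Ken fused to eGFP, and it was sonicated to fragments of 200 to 800 bp. There was 1 group with 2 biological replicates, no untreated or other-genotype group, and no control library analysed here. The description in the labels names an antibody against GFP, while another field names ken. Embryos of all stages and tissues were mixed, so strong recovery in a few cells and weak recovery in many cannot be told apart. The labels do not say how many embryos went into a replicate.

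Each ribosome has a large and a small subunit, and each subunit carries many ribosomal proteins, most of them present once, that hold the ribosomal RNA in shape. The genes must be expressed at similar, high levels, and in Drosophila the loss of 1 copy of many of them gives the Minute phenotype of slow growth and thin bristles. Their promoters are known for a polypyrimidine initiator, the TCT element, in place of the usual initiator. The promoter factor DREF, which reads the DNA replication-related element, and the zinc finger protein M1BP help to recruit the TBP-related factor Trf2 to many of them. Ken carries a BTB domain and zinc fingers, and it represses some targets of JAK-STAT signalling.

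A gene is counted here as carrying a peak when the summit of a peak from the conservative list lay within 1000 bp of any of its transcription start sites (TSSs). The conservative list is the stricter of the authors' thresholded lists from both replicates, and signal is the authors' own value per peak, without a stated scale. Of the 92 genes 32 carried such a peak, 34.8%, and the share over all protein-coding genes was 17.2%. The strongest were RpL32 and RpS2. All 32 summits had the word CGATA within 100 bp, as did 82.5% of conservative summits within 1000 bp of any protein-coding TSS. No test was run on these counts, because the genes were chosen with results of these data known. The remaining 60 genes had no conservative peak in reach, and 11 of these had no candidate of any rank within 1000 bp.

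The sequence at the summits is shown first, because the letters recurred at many of the genes. Each stretch lies outside annotated untranslated regions, reads 5′ to 3′ on the strand of the gene, comes from the release 6 assembly (dm6 coordinates), and has CGATA or its complement TATCG in capitals. Where both overlap, they form TATCGATA, the DNA replication-related element. The first set gives examples of genes with a conservative peak, up to 40 bp on either side of the summit.
RpL32, chr3R:30046205-30046285, minus strand: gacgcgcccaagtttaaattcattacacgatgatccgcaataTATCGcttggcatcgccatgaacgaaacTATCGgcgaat
RpS2, chr2L:9897553-9897612, minus strand: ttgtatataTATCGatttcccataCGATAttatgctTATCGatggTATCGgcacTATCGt
RpS13, chr2L:8364736-8364816, minus strand: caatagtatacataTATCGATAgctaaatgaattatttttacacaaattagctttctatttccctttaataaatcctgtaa
RpS6, chrX:7901364-7901444, minus strand: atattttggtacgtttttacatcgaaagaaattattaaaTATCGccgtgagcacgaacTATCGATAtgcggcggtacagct
RpL10Ab, chr3L:11822759-11822839, plus strand: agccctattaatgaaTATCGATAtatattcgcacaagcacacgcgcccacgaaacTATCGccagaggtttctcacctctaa
RpS28b, chrX:9554506-9554586, plus strand: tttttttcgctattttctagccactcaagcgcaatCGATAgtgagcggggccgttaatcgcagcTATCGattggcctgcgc
RpL34a, chr3R:26059389-26059469, minus strand: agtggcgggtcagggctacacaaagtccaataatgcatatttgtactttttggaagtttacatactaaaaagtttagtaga

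The RpS2 stretch held 5 separate matches of the short word in 60 bases and no TATCGATA. The RpL32 stretch held 2 short matches and no TATCGATA. RpL34a had none in its 81 bases, and its nearest match was 54 bp from the summit. The stretches of RpL26, RpL36, RpS25 and RpS29, not printed here, also had none. The second set gives examples of genes that had TATCGATA within 100 bp of their most upstream TSS but no conservative peak, centred on that word.
RpL27, chr3R:25685052-25685128, minus strand: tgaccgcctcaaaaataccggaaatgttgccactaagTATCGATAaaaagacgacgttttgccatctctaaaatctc
RpL24-like, chr3R:11431583-11431659, minus strand: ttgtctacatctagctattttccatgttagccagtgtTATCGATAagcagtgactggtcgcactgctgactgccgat
RpS14a, chrX:7933642-7933722, plus strand: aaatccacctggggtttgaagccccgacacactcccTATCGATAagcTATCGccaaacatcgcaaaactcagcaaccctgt
RpL7-like, chr2L:12056275-12056325, plus strand: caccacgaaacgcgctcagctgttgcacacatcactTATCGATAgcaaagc
The same 8 letters therefore stood at promoters of the genes chosen by symbol, with and without a peak. RpL24-like and RpL7-like are named only for their likeness to a ribosomal protein.

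The conservative list gave these genes signals from 78.4 at RpL39 to 842 at RpL32, with a median of 155. The median over all 2400 genes with a conservative peak was 153, and over the 2031 conservative peaks on the main arms it was 127. Of the 32 genes 21 were above that last value and 10 were above 205, the upper quartile of the list. RpL32 (FBgn0002626), a large subunit protein whose transcript is a common reference in fly expression work, had its peak on 3R at 30046096 to 30046460, with a summit 84 bp upstream of the TSS. Its signal was 345 in replicate 1 and 489 in replicate 2, and it stood at the 99.7 percentile of the conservative list. RpS2 (FBgn0004867), a small subunit protein, had 555 in the pooled list, 243 in replicate 1 and 329 in replicate 2, with a summit 20 bp upstream of the TSS on 2L. Both were high in both replicates and above every other ribosomal protein gene in each of them.

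**Figure D1:**
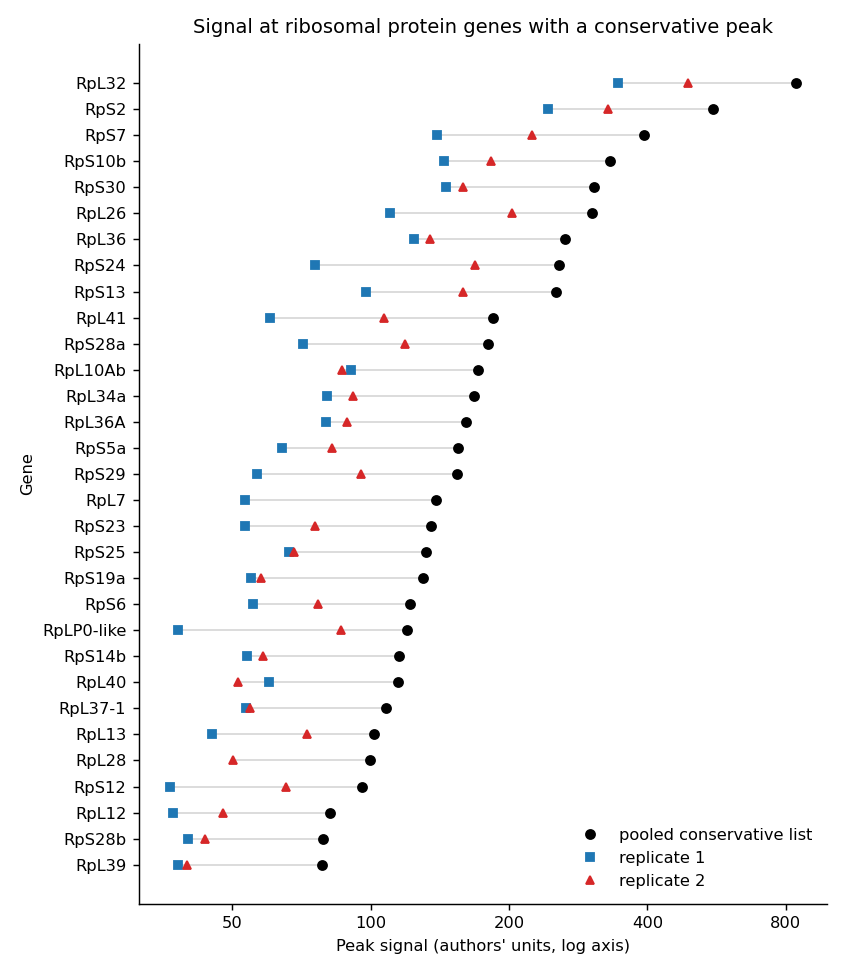
Signal (authors' units, log axis) at 31 of the 32 ribosomal protein genes with a conservative peak, one row per gene ordered by the pooled value, with circles for the pooled conservative list, squares for replicate 1 and triangles for replicate 2. RpL32 (842) and RpS2 (555) stand above the rest, and the pooled values fall to 78.4 at RpL39; RpL7 has no replicate 2 point and RpL28 no replicate 1 point.

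Other strong genes followed without a gap of that size. RpS7 had 394 in the pooled list, 140 in replicate 1 and 225 in replicate 2. RpS10b had 332, with 144 and 183. Replicate 2 gave the larger number at both genes. RpS30, which is made as a fusion with a ubiquitin-like domain, had 306, with 146 and 159 in replicates 1 and 2, and its summit lay in the 5' UTR 12 bp downstream of a TSS. RpL26 had 303, with 110 and 203, and a summit in an intron 57 bp downstream of a TSS. RpL36 had 264, with 124 and 135. All 3 were also higher in replicate 2. RpS24 had 257, with 75.8 and 169 in replicates 1 and 2. RpS13 had 253, with 97.6 and 159. RpL41, which encodes a very short peptide, had 185, with 60.5 and 107. RpS28a had 180, with 71.5 and 119, from a summit 356 bp downstream of its TSS that was nearer to Mgat2.

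The weakest members with a conservative peak were RpL39, RpS28b and RpL12. RpL39 had 78.4 in the pooled list, with 38.1 in replicate 1 and 39.9 in replicate 2. RpS28b had 78.9, with 40.1 and 43.8, and RpL12 had 81.6, with 37.3 and 47.9. None of the 3 was in the thresholded list of replicate 1, and all 3 were in that of replicate 2. Their summits stood between the 17.2 and 20.4 percentiles of the conservative list.

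By subunit, 15 of 50 large subunit genes carried a conservative peak (30%), 16 of 38 small subunit genes (42.1%) and 1 of 4 stalk genes (25%). The median signals of the large and small subunit genes were 161 and 155. The stalk is the flexible arm of the large subunit that recruits translation factors. RpLP0, RpLP1 and RpLP2, which build it, had no conservative peak in reach. The 1 counted in the stalk class was RpLP0-like, named for its similarity to RpLP0, with 120 in the pooled list, 38.1 in replicate 1 and 86.4 in replicate 2. By arm, X had 8 of 14 genes with a peak (57.1%), where the share over all genes of X was 23.5%. On 2L there were 6 of 19 (15.2% of all its genes), on 2R 7 of 21 (17.3%), on 3L 4 of 14 (14.1%) and on 3R 7 of 23 (17.5%). RpS3A, the 1 ribosomal protein gene on chromosome 4, had none.

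The thresholded list of each replicate held fewer or different members. Replicate 1 had a thresholded summit within 1000 bp of a TSS at 24 of the 92 genes, 26.1%, against 13.2% of all genes. Replicate 2 had one at 33, 35.9%, against 16.3% of all genes. Both lists named the gene in 22 cases, 23.9%, against 11.5% of all genes. The other pooled list held 34 of the 92, 37.0%, against 18.6% of all genes, and included all 32 of the conservative list with RpL6 and RpS14a added.

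Of the 32 genes 21 were named by both replicate lists, 2 by replicate 1 alone, 8 by replicate 2 alone and 1 by neither. The genes of replicate 1 alone were RpL34a and RpL40. RpL34a had 80.4 in replicate 1 and 91.5 in replicate 2, and RpL40, a fusion of ubiquitin with a large subunit protein, had 60.1 and 51.4. So RpL34a was not in the thresholded list of replicate 2 although its signal there was the larger one. The genes of replicate 2 alone were RpL12, RpL28, RpL39, RpLP0-like, RpS12, RpS23, RpS28b and RpS6. RpS6, the small subunit protein phosphorylated by S6 kinase, had 55.6 in replicate 1 and 77 in replicate 2. RpS12 had 36.7 and 65.5, and RpS23, a protein of the decoding centre, had 53.3 and 75.9.

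At RpL7 and RpL28 the replicates could not be set side by side. RpL7 had 138 in the pooled list and 53.3 in replicate 1, and replicate 2 had no candidate within 200 bp of the summit. RpL28 had 99.6 in the pooled list and 50.3 in replicate 2, and replicate 1 had no candidate there. RpL7 was the 1 gene of the conservative list that neither replicate list named.

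The 30 genes with a value in both replicates were higher in replicate 2 in 28 cases. The median log2 of replicate 2 over replicate 1 was 0.40 (SD 0.37 across the 30 genes, range -0.23 to 1.18). Over the 1910 conservative peaks with both values it was 0.16 (SD 0.57), and 61.3% of those were higher in replicate 2. Whether the signal has the same scale in both replicates is not known, so the size of this shift has no unit of recovery. The largest differences towards replicate 2 were at RpLP0-like (1.18) and RpS24 (1.16), and the values least in that direction were at RpL40 (-0.23), RpL10Ab (-0.06) and RpL37-1 (0.03). The order of the genes was similar in both, with a Spearman rho of 0.87 over the 30 genes, all of them selected for ranks that repeat.

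**Figure D2:**
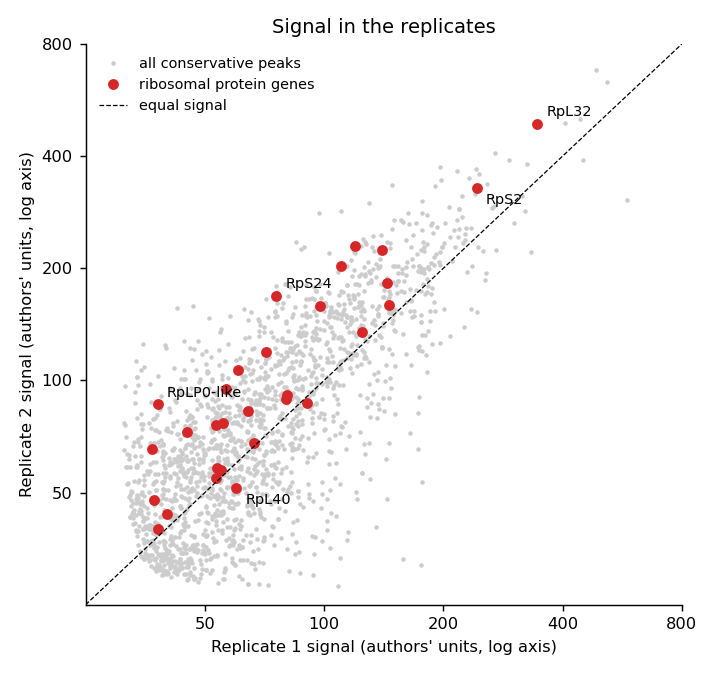
Signal in replicate 1 (x) and replicate 2 (y), both in the authors' units on log axes, for the 30 ribosomal protein genes with both values (red) and 1910 conservative peaks (grey), with a dashed line of equal signal. Of the red points 28 lie above the line, RpLP0-like and RpS24 farthest, and RpL40 and RpL10Ab lie below it.

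Most summits sat just upstream of the gene. The median absolute distance to the nearest TSS of the gene was 75 bp, against 81 bp over all 2400 genes with a conservative peak. The summit was upstream of the TSS in 27 of 32 genes (84.4%, against 85.3% of all such genes). It was within 100 bp in 18 (56.2%, against 55.8%) and within 200 bp in 24 (75%, against 71.6%). In gene models 26 of the summits were intergenic, 4 were in a 5' UTR and 2 in an intron. The nearest to their TSS were RpS30 (12 bp downstream), RpL36A (15 bp upstream) and RpL12 (18 bp upstream). The farthest were RpS14b (723 bp downstream), RpL40 (700 bp upstream) and RpL39 (518 bp upstream). Just outside the window lay conservative summits of RpS18 at 1067 bp (signal 79.7), RpS14a at 1087 bp (105, the summit that is the second one of RpS14b) and RpLP2 at 1196 bp (165). RpLP0 (1320 bp, 232) and RpLP1 (1528 bp, 282) followed.

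**Figure D3:**
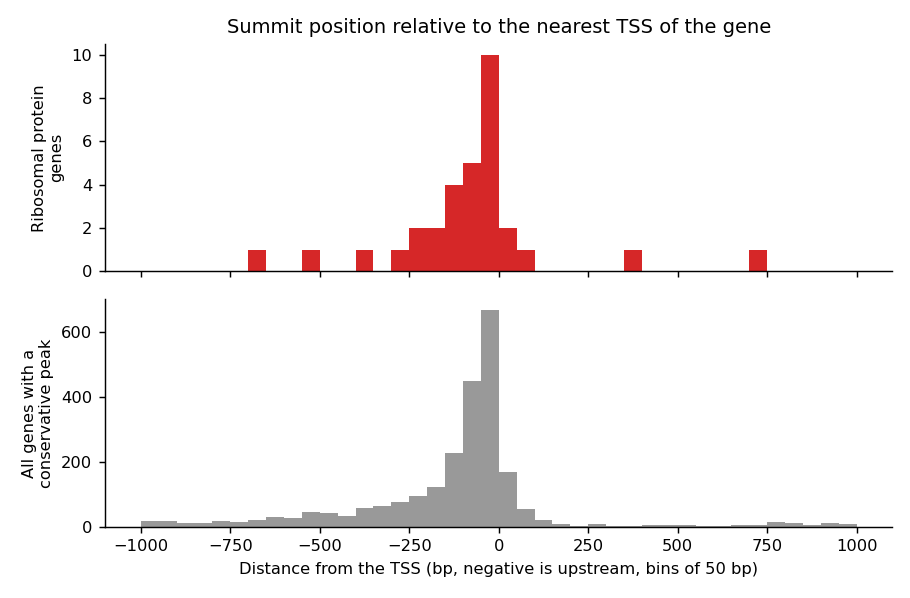
Distance from the nearest TSS of the gene to the summit of its strongest conservative peak (bp, negative is upstream, bins of 50 bp), as the number of ribosomal protein genes above and of all 2400 genes with a peak below. Both histograms are highest in the bin just upstream of the TSS, and 27 of the 32 ribosomal protein genes lie on the upstream side.

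Many of these peaks were shared with a neighbouring gene. In 24 of 32 genes (75%) the TSS of another protein-coding gene also lay within 1000 bp of the summit, and over all genes with a peak that share was 70.5%. In 12 (37.5%, against 35.1%) that other TSS was the nearer one. Among these 12 were RpL13, RpL34a, RpL39, RpL40, RpL41, RpLP0-like, RpS13, RpS14b, RpS19a, RpS25 and RpS28a. For all 12 the peak cannot be ascribed to the ribosomal protein gene rather than the neighbour. For the other 20, RpL32, RpS2 and RpS7 among them, the ribosomal protein gene had the nearest TSS.

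The RpL13 peak is an example that touches the factor named above. RpL13 and Dref, the gene for DREF, point away from each other on 2L, and the peak at 9966827 to 9967236 lay over the 5' end of Dref, with its summit in a 5' UTR. That summit was 281 bp upstream of RpL13 and 197 bp from a TSS of Dref, on the downstream side. The signal was 102 in the pooled list, 45.2 in replicate 1 and 72.8 in replicate 2. Replicate 1 had no thresholded summit within 200 bp of it, although its list named RpL13 through another one. The RpS6 peak was likewise within 1000 bp of bys, which encodes bystin, a factor of small subunit assembly, 476 bp upstream of its TSS and 73 bp upstream of RpS6. At RpS13 the summit was 114 bp upstream of the gene and 79 bp from a TSS of CSN8, a subunit of the COP9 signalosome.

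A divergent partner, a protein-coding gene on the opposite strand with a TSS within 1000 bp upstream, was annotated for 55 of the 92 genes. Of these 23 carried a conservative peak, 41.8%, and of the 37 without a partner 9 did, 24.3%. Over all genes the shares were 32.2% of 4913 with a partner and 9.06% of 9055 without. RpS2, RpS10b, RpS24 and RpS30 carried peaks with no divergent partner. Small nucleolar RNA genes, which guide the modification of ribosomal RNA and often lie in introns of ribosomal protein genes, lay inside 8 of the 32 genes with a peak (25%) and 20 of the 60 without (33.3%). The same shares over all protein-coding genes were not computed, so these have no background beside them.

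A second conservative summit was in reach at 8 genes. At RpL36 the second was 143, 251 bp upstream, beside 264 at the first. At RpL36A it was 90.4, 587 bp upstream, beside 161, and at RpLP0-like it was 80.1, 597 bp upstream, beside 120. RpL32 (29.6), RpS12 (24.2), RpL37-1 (17.7) and RpL41 (15.0) had second summits far below their first. RpS14b differed from these, since its second summit, 105, was the one at its own promoter, 69 bp upstream, while the stronger one, 115, lay 1 bp from a TSS of Ubr3, an E3 ubiquitin ligase.

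The word CGATA was within 100 bp of the summit, on either strand, in 32 of 32 genes. Over the 1731 conservative summits within 1000 bp of any protein-coding TSS it was in 82.5%, and over all 2031 in 75.3%. The number of matches per gene ran from 1 to 5 with a median of 3, and over all conservative summits the median was 2. The nearest match was a median of 17 bp from the summit, and 17 genes had one within 20 bp. RpS2, RpS10b, RpS24, RpS30 and RpL40 had 5 matches each, and RpL7, RpL13, RpS5a and RpS25 had 1. TATCGATA, which contains CGATA on both strands, was near 19 of 32 summits (59.4%), against 33.1% of summits within 1000 bp of a protein-coding TSS. The median signal was 171 at the 19 with it and 132 at the 13 without. RpL32 and RpS2, the strongest, were among the 13.

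Other words were rarer. They are set against the conservative summits within 1000 bp of any protein-coding TSS. GGTCACACT, the Motif 1 site of M1BP, was near 3 summits, those of RpL7, RpS14b and RpS23 (9.38%, against 5.03%). The RpS14b summit meant here is the one 1 bp from a TSS of Ubr3, and the word was absent within 100 bp of the most upstream TSS of RpS14b. The published Ken consensus, searched as GNGAAAG or GNGAAAT on either strand, was near 7 of 32 summits (21.9%, against 23.1%). CAGCTG and GAGAG were each near 2 (6.25%, against 12.9% and 16.6%), and TATAAA near 11 (34.4%, against 26.9%).

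Measured at the TSS instead, the words set the genes with a peak beside those without. Within 100 bp of the most upstream TSS, CGATA was present in 30 of the 32 genes with a conservative peak (93.8%) and 28 of the 60 without (46.7%). Over all genes the shares were 75.9% with a peak and 31.8% without. TATCGATA was present in 19 of 32 (59.4%) and 8 of 60 (13.3%), against 28.1% and 3.63% over all genes. Read the other way, 19 of the 27 ribosomal protein genes with TATCGATA at the TSS carried a peak (70.4%), 13 of the 65 without it did (20%), and over all genes the shares were 61.6% and 13.4%. With CGATA at the TSS 30 of 58 carried a peak (51.7%), and without it 2 of 34 did (5.88%), against 33.1% and 6.83% over all genes. Those 2 were RpL40 and RpS28a, whose summits were nearer to other genes. Within 100 bp of the most upstream TSS of all 13968 genes, CGATA was present in 39.3%, TATCGATA in 7.83%, GGTCACACT in 5.28% and the Ken consensus in 24.9%. GAGAG was in 7 of the 32 (21.9%) and 4 of the 60 (6.67%), against 16.2% and 23.8% over all genes. The Ken consensus was in 12 of 32 (37.5%) and 17 of 60 (28.3%), against 25% and 24.9%. GGTCACACT was in 6.25% and 8.33%, against 6.25% and 5.08%. CAGCTG was in 6.25% and 10%, against 16.2% and 13.3%, and TATAAA in 21.9% and 18.3%, against 23.8% and 30.3%.

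**Figure D4:**
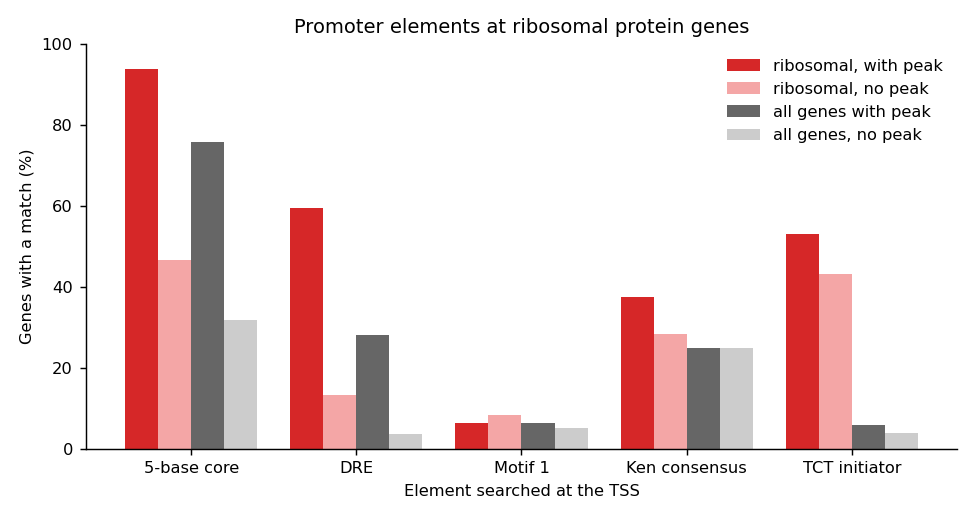
Share of genes (%) with each element at the TSS, for ribosomal protein genes with and without a conservative peak (dark and light red) and for all genes with and without one (dark and light grey); the first 4 elements were searched within 100 bp of the most upstream TSS on both strands, the TCT initiator within 10 bp of any TSS on the gene's strand. The core word and the DNA replication-related element (DRE) are more frequent beside a peak in both sets, whereas the TCT initiator is frequent in both groups of ribosomal protein genes (53.1% and 43.3%) and rare in all genes.

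The TCT initiator, the element these promoters are known for, was searched next. The letters CTTTNT, starting within 10 bp of any TSS on the strand of the gene, were found in 43 of 92 genes, 46.7%, against 4.20% of all genes. They were in 17 of 32 genes with a peak (53.1%) and 26 of 60 without (43.3%), against 5.83% and 3.86% of all genes with and without a peak. With the shorter word CTTT within 5 bp of a TSS, chosen after the data were seen, the counts were 18 of 32 (56.2%) and 40 of 60 (66.7%), against 8.06% of all genes. The order of the shares thus turned. Word and window changed together, so the turn cannot be ascribed to either. The following stretches run from 14 bp before to 14 bp after a TSS, on the strand of the gene, with the match in capitals, first for 3 genes with a peak and then for 2 without.
RpS30, chr3R:20850583-20850611: tctgcgccatctttCTTTTTcgggatccg
RpL32, chr3R:30046147-30046175: cacaccaccagCTTTTTcttttcgcttct
RpL13, chr2L:9967316-9967344: gttggttgcgatttcCTTTTTaattcgtt
RpS27A, chr2L:10408338-10408366: acgctgtgtgtgtgttCTTTCTttccttt
RpS3, chr3R:23358798-23358826: cgcgggcacactggcctCTTTCTtttctg

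Of the 60 genes without a conservative peak, 49 had a ranked candidate within 1000 bp of a TSS. The best candidate per gene ran from 4.63 at RpLP1 to 275 at RpL13A, with a median of 35.2. The median of all 146877 candidates that did not pass was 19.4, but a gene's best of several candidates is higher than a typical one by construction. Only RpL13A and RpL6 had a candidate above 78.4, the weakest signal among the genes with a conservative peak.

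RpL13A and RpL6 had strong candidates that the conservative list did not hold. At RpL13A, a large subunit protein gene on 3R, the candidate 229 bp upstream of the TSS had 275 in the pooled ranked list, 87.0 in replicate 1 and 187 in replicate 2. The global irreproducible discovery rate (IDR) is low, and its −log10 high, where a candidate ranks alike in both inputs compared. Here the −log10 global IDR was 4.04, past the level of 2 that the conservative list kept. The candidate was in none of the 4 thresholded lists. On the main arms 81 candidates, this one among them, reached that level but were not in the conservative list. RpL6 had 187, 224 bp upstream, at a −log10 global IDR of 1.60, and the thresholded list of each replicate named the gene. The replicates put their summits at different places there, so the nearest candidates gave 113 in replicate 1 and 25.7 in replicate 2, and the thresholded summit of replicate 2 had 74.8.

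The next candidates were at RpS14a (76.4), RpL8 (72.2), RpS19b (66.6) and RpL34b (60.0). RpS14a had 15.2 in replicate 1 and 57.5 in replicate 2. RpL8 had 46.1 and 25.3, with a −log10 global IDR of 1.59. RpS19b had 43.5 and 15.5, and RpL34b had 39.7 and 25.5. These 4 were uneven between the replicates, RpS14a towards replicate 2 and the others towards replicate 1. The lowest candidates were at RpLP1 (4.63), RpS3 (8.80), a small subunit protein with a further role in DNA repair, and RpL24 (10.7). None of these 3 had a candidate within 200 bp in either replicate's own list. The list of replicate 2 alone added RpS15Aa (47.1), RpS18 (15.3) and RpLP2 (12.5). RpS15Aa was above RpL39 (39.9) and RpS28b (43.8) in replicate 2, both with a conservative peak, and RpS18 and RpLP2 were below them.

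**Figure D5:**
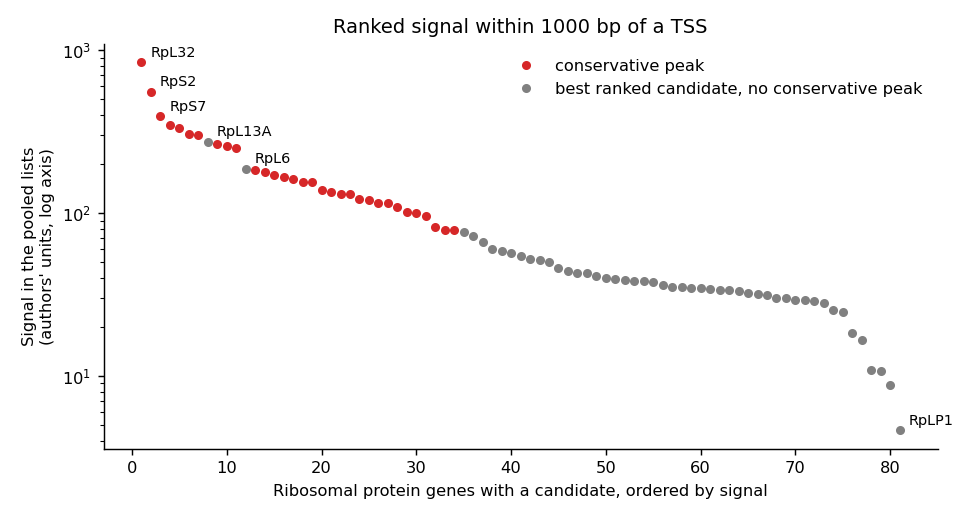
Signal in the pooled lists (authors' units, log axis) for the 81 ribosomal protein genes with a candidate within 1000 bp of a TSS, ordered by signal, in red where the peak is in the conservative list and in grey for the best ranked candidate of the others. RpL13A (275) and RpL6 (187) are the 2 grey points among the red ones, and the lowest point is RpLP1 (4.63).

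The 8 genes with TATCGATA at the TSS and no conservative peak had best candidates from 31.6 to 76.4, with a median of 48.6. The 41 with a candidate but without that word at the TSS had a median of 34.6. A best candidate could lie anywhere within 1000 bp of a TSS, so these are not signals at the word. Among the 8, it lay 815 bp downstream at RpL27, and 675, 666 and 252 bp upstream at RpS15Aa, RpS16 and RpS14a. At RpL24-like, RpS15Ab, RpL7-like and RpL19 it lay 32 to 85 bp upstream. RpL19 was the most uneven of the 8, with 8.35 in replicate 1 and 45.4 in replicate 2 at a candidate 85 bp upstream. RpS14a, shown above, RpL24-like (17.5 in replicate 1, 36.6 in replicate 2) and RpS15Aa (21.2 and 47.1) were also higher in replicate 2. RpS15Ab had 26.1 and 27.3, and RpL7-like had 18.8 and 23.2. RpS16 (25 and 15.7) and RpL27 (27.5 and 17.8) were higher in replicate 1.

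The 11 genes with no candidate of any rank included RpL9, RpL10, RpL11, RpL15, RpL29, RpL35A, RpL37A, RpS3A, RpS9 and RpS27A. They were 12% of the 92, and over all protein-coding genes 10.7% had no candidate. RpS27A encodes ubiquitin fused to a small subunit protein, as RpL40 does for the large subunit. None of the 92 genes had a run of 50 bases within 200 bp of its most upstream TSS that also stood elsewhere on the main arms.

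Several ribosomal proteins have a pair of genes, and other genes are named for their likeness to a ribosomal protein; both kinds were set side by side. RpS5a had 155 (64.2 in replicate 1, 82.7 in replicate 2), while RpS5b, its copy known from the ovary, had a best candidate of 38.0. RpS10b had 332 and RpS10a a candidate of 33.4. RpS19a had 130 (55.1 and 57.7 in replicates 1 and 2) and RpS19b a candidate of 66.6. RpL10Ab had 171 and RpL10Aa a candidate of 30.2. In these 4 pairs 1 gene had a conservative peak in reach and the other had none, but the RpS19a summit lay 370 bp upstream of that gene and 110 bp from a TSS of Rok.

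RpL7 (138) and RpL7-like (31.6), RpL34a (167) and RpL34b (60.0), and RpL37-1 (108, with 53.5 and 54.7 in replicates 1 and 2) and RpL37-2 (33.5) were split in the same way. Of RpLP0 and RpLP0-like the second carried the peak (120), and RpLP0 had a candidate of 35.0. The summits of RpL34a and RpLP0-like were nearer to Trmt61 (67 bp) and 14-3-3zeta (37 bp), so these peaks cannot be ascribed to 1 gene. Of the RpS28 genes both RpS28a (180) and RpS28b (78.9) had one, and RpS28-like had a candidate of 35.2. The RpS28a summit lay 71 bp from a TSS of Mgat2 and 356 bp from its own. In 3 pairs neither gene had a conservative peak. RpL22 had a candidate of 37.5 and RpL22-like one of 29.4, RpL24 one of 10.7 and RpL24-like one of 45.9, and RpS15Aa one of 54.6 and RpS15Ab one of 52.0. RpS14a (candidate 76.4) and RpS14b (115) lie in tandem on X, and the summit 69 bp upstream of RpS14b is the one just outside the window of RpS14a.

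Genes around the ribosome were counted in the same way. The ribosomal proteins whose symbols start differently, sta and Rack1, had no conservative peak and best candidates of 40.8 and 59.7. A list of 35 genes was made for ribosome assembly and ribosomal RNA synthesis, but it also held Rrp1, whose fly symbol stands for a DNA repair protein. Rrp1 had no conservative peak, and 11 of the 35 genes carried one, 31.4%. They were led by Bka (366, with 126 in replicate 1 and 239 in replicate 2), Polr1D, a subunit shared by RNA polymerases I and III (292, with 80.3 and 182), and Nle, a factor of large subunit assembly (263, with 105 and 152). eIF6, which keeps the large subunit from joining early, had 234, with 118 in each replicate. Fib, the methyltransferase of the nucleolus, had no conservative peak and a best candidate of 35.9.

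Of 17 genes that tie ribosome supply to growth 2 carried a peak, 11.8%: mTor, the kinase at the centre of nutrient sensing (136, with 36.5 and 87.4 in replicates 1 and 2), and Rheb, the small GTPase that activates it (111, with 39.7 and 63.7). Myc had no candidate in reach. Of 7 promoter factors linked to ribosomal protein genes 2 carried one, 28.6%: Dref, with 102 at the peak shared with RpL13, and BEAF-32, an insulator protein, with 241 (102 in replicate 1, 127 in replicate 2). Trf2 had a best candidate of 61.3, and M1BP had none. The peak share of all protein-coding genes was 17.2%, and no order is read from lists this small.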

How the data were processed

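Peak lists of 2 biological replicates were analysed. Per the deposited notes, the lists are IDR lists on dm6 derived from filtered alignments and further files; no aligner, peak caller or read depth is stated in the sources used. The signal of each peak, a score capped at 1000 and, in ranked lists, the −log10 global IDR were deposited by the authors. The score entered no result. The conservative list was the main list: 2087 peaks, 2031 on the main arms. Replicates 1 and 2 had 1544 and 1819 thresholded peaks and 137061 and 124478 candidates.

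Genes and TSSs came from Ensembl release 115 and sequence from the release 6 assembly. A gene took its strongest conservative summit within 1000 bp of any TSS. Replicate signals came from the nearest candidate summit within 200 bp in each replicate's own ranked list. The 8 columns with values of single inputs in the pooled ranked list were not used, having no header. The members, gene lists and words were chosen with earlier results of these data known, so counts and medians stand beside those of all protein-coding genes, with no test. Genes given with all values were, by rule, drawn from the 12 strongest, the 3 weakest, those named by fewer than both replicate lists, the best and lowest candidates, paralogues, and extremes of distance and replicate difference. A few genes that enter the counts are not reported here. Values for other genes are examples chosen after their values were seen. Assignment and word search were tested on simulated data. Python 3.11.15, pandas 2.3.3 and scipy 1.17.1 were used.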

Additional observations from a re-analysis of the deposited data

How the results depend on the processing

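The count of 32 ribosomal protein genes with a peak was 34 in the other pooled list, 30 and 25 with summits within 500 and 200 bp, and 22 when named by both replicate lists, a setting chosen after seeing the data. Leaving out a replicate gave 24 to 33. It fell to 17 at a global IDR of 0.001, to 21 in the stronger 50% of peaks, and to 21 when a summit counted only for the nearest gene. Genes with CGATA near the summit were likewise 17 and 21 of the same 17 and 21, 28 within 50 bp, and 24 to 31 without a replicate, 31 being of 33. TATCGATA was near the summits of 13 to 20 genes in the lists and windows tried, 16 to 20 without a replicate. GGTCACACT fell from 3 to 0 at a global IDR of 0.001 and was at 1 to 2 without a replicate. CTTTNT at a TSS fell from 43 to 24 genes with the most upstream TSS only. The median log2 replicate difference was 0.36 with matches within 100 or 50 bp. Fewer peaks or TSSs enter each stricter setting by construction. The share over all genes was not computed for the distance windows, the global IDR of 0.001, the stronger 50% or the nearest-gene setting. Those counts of genes with a peak therefore have no background beside them. No paired analysis was possible because the series has 1 group. Depth is unknown, so a gene without a candidate cannot be called free of Ken.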
